A study of Homo sapiens with 9 samples.

Results

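Nucleotide excision repair was followed through 10 genes in HEYA8, an established human line labelled as high-grade serous ovarian cancer with a WT genotype. The genes were chosen by name as the core factors that find and cut out platinum adducts: ERCC1, ERCC2, ERCC3, ERCC4, ERCC5, ERCC6, ERCC8, XPA, XPC and DDB2. All 10 were found in the table of 58735 genes, each in 1 row, and all 10 were among the 15232 genes that passed the filter on low counts. The cells received DMSO, the receptor tyrosine kinase inhibitor sunitinib or compound 32 for 24 h, with 3 libraries per treatment, all labelled as 1 batch. The labels state neither a dose nor the structure of compound 32. No library came from cells given cisplatin, so the values describe the repair genes without platinum. The series text calls the DMSO and sunitinib samples biological replicates and does not say so of compound 32, so p-values involving compound 32 may rest on technical spread alone.

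Nucleotide excision repair removes bulky lesions from DNA, among them the crosslinks that cisplatin forms between neighbouring bases of a strand. XPC and the DDB2 subunit of the UV-damaged DNA binding complex find lesions anywhere in the genome, while ERCC6 (CSB) and ERCC8 (CSA) act where RNA polymerase has stalled on one. Both routes bring in TFIIH, whose helicases ERCC3 (XPB) and ERCC2 (XPD) open the helix, and XPA, which checks the lesion. The nucleases ERCC1-ERCC4 (XPF) and ERCC5 (XPG) then cut the strand on either side, and DNA polymerase, the PCNA clamp and a ligase fill the gap. DDB2 and XPC are known transcriptional targets of p53, and ERCC1 has long been studied as a marker of the response to platinum.

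Library totals ran from 15498101 to 18006171 counts. Sunitinib replicate 3 stood apart from its group, with a Pearson r across genes (log2 CPM) of 0.9815 and 0.9811 to the other sunitinib libraries, against at least 0.9915 for every other pair within a group. Ribosomal protein genes took 7.57% of its counts and 4.14 to 4.99% of those of the other 8 libraries. Mitochondrial transcripts took 4.71% of its counts and 3.05 to 3.44% of the others. Of these transcripts 3 of 13 were called higher under sunitinib, near the 20.3% of all genes called higher. Relative to the mean of all libraries the values of sunitinib replicate 3 fell with gene length across genes (Spearman rho -0.275, with -0.0520 to 0.158 in the others). The 10 genes and the lists are therefore also described without this library where it changes a call or a count. Of 12 ovarian and epithelial markers 9 passed the filter. KRT8 (a mean of 730.8 CPM over the 9 libraries), KRT18 (382.3), PAX8 (123.9) and KRT7 (120.7) were highest, while EPCAM was at 1.52, KRT19 at 0.679, MUC16 at 0.0494, FOLR1 at 0.0334 and CDH1 at 0.0203 CPM. The summed level of 8 leukocyte markers was at most 1.37 CPM in any library. That of 6 endothelial markers, mostly CDH5, was 8.04 to 10.7 CPM in DMSO, 14.04 to 17.7 under sunitinib and 6.57 to 7.51 under compound 32, and that of 6 fibroblast markers 7.65 to 8.75, 4.61 to 5.92 and 8.43 to 10.3 CPM. The part of these markers in the results was not tested.

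The sequences shown here are those of the start regions of the 3 genes whose change against DMSO was called in all 19 alternative fits: DDB2, which rose under compound 32, and XPC and ERCC1, which rose under sunitinib. Each runs 5′ to 3′ on the gene's strand, from 250 bases before to 50 bases after a RefSeq start (GRCh38.p14). In DDB2, capitals mark the matches to the p53 half-site, a motif of 10 bases. In XPC and ERCC1 they mark CCAAT and GGGCGG on either strand.
DDB2, second RefSeq start, chr11:47214724-47215023, plus strand: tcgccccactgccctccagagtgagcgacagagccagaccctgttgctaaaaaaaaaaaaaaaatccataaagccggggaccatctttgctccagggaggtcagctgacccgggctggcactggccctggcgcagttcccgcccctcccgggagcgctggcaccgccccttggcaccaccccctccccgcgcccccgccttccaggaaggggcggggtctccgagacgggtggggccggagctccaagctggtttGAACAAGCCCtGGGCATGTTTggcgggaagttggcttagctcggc
XPC, chr3:14178552-14178851, minus strand: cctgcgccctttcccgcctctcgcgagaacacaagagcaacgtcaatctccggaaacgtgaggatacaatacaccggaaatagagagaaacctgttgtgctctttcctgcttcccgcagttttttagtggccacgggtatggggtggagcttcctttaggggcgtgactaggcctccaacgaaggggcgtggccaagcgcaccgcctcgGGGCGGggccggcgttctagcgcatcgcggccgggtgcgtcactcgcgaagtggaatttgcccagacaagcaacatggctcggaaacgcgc
ERCC1, one of 3 RefSeq starts, chr19:45423479-45423778, minus strand: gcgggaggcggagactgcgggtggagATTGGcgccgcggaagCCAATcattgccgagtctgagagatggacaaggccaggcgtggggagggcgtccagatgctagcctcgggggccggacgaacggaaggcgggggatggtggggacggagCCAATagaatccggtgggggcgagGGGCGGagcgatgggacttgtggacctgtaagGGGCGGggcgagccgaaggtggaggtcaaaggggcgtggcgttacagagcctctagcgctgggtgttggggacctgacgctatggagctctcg

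The DDB2 window held 2 half-sites that began 6 and 17 bases from the start, counting the start as base 1, and lay 1 base apart. They occupy chromosome 11 from 47214979 to 47214988 and from 47214990 to 47214999, and both lie within an exon of 1 of the 16 DDB2 transcripts in GENCODE release 29. A pair of half-sites with at most 13 bases between them was found in 10 of 35116 windows of this length (0.0285%), and of the 10 genes only DDB2 had one in these windows. Among 27 p53 target genes listed for comparison, 22 had a window in the table and DDB2 alone held such a pair. A single half-site was in 6.63% of all windows. The printed ERCC1 window held CCAAT and GGGCGG, and the XPC window held GGGCGG. The printed DDB2 window held 3 matches to GGGCGG as well, which are not marked. The window of the other DDB2 start held CCAAT and no half-site, and those of the other ERCC1 starts held neither CCAAT nor GGGCGG. Both motifs are common, CCAAT in 34.6% and GGGCGG in 45% of all windows. Other motifs were searched too and are not marked. The XPC window held ACGTG, found in 21.4% of all windows, and the E2F motif TTTCCCGC, found in 1.63%. The window of another ERCC1 start held the ETS motif CCGGAAGT, found in 4.14%. A match describes letters only and does not show binding.

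Levels were compared between genes in DMSO as CPM per kilobase of summed exon length. DDB2 was highest at 10.0 ± 0.43 (SD, n = 3), followed by ERCC2 at 9.69 ± 0.48, ERCC1 at 8.65 ± 0.26, ERCC3 at 8.64 ± 0.07 and XPC at 8.55 ± 0.69. DDB2 and ERCC2 overlapped in range, and so did the neighbours ERCC1, ERCC3 and XPC. XPA was lower at 4.41 ± 0.11, then came ERCC4 at 2.67 ± 0.13 and ERCC8 at 2.61 ± 0.05, which overlapped, ERCC6 at 1.36 ± 0.12 and ERCC5 at 0.70 ± 0.13. With the length of the principal coding transcript instead, ERCC3 (26.4 CPM per kilobase) and DDB2 (26.2) led and ERCC5 (1.14) remained last. The order has a limit, because some of these genes share exons with others. ERCC5 shares 63.2% of its exonic bases with the readthrough gene BIVM-ERCC5, which had 0 counts in all 9 libraries. Shared with any gene were 30.4% of the exonic bases of XPC, 30.0% of ERCC8, 28.6% of ERCC1, 25.7% of ERCC4 and 8.3% of ERCC2. How reads in shared exons were assigned is not stated, so the order may depend on it.

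**Figure D1:**
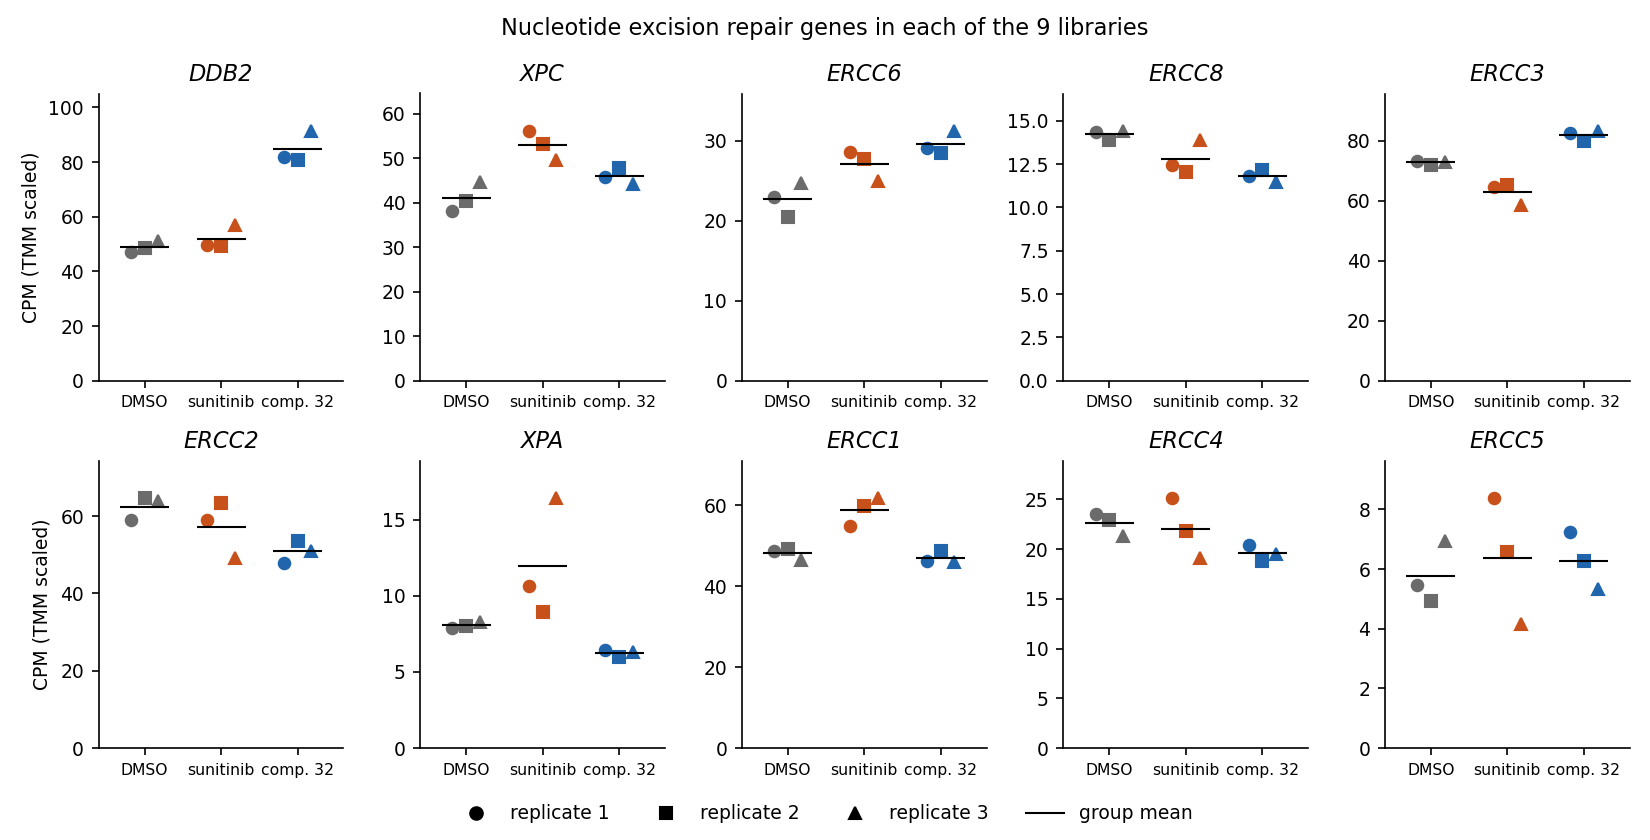
CPM (TMM scaled, vertical axes from 0) of the 10 genes in each library, with symbols for replicates 1 to 3 and a line at each group mean. The 3 compound 32 libraries of DDB2 sit at 80.6 to 91.4 CPM, above all others, and sunitinib replicate 3 stands alone for XPA at 16.4 CPM.

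DDB2 gave the largest change against DMSO of the 10 genes. Its 3 DMSO libraries held 47.1, 48.6 and 51.3 CPM, the sunitinib libraries 49.5, 49.2 and 56.9 CPM and the compound 32 libraries 81.8, 80.6 and 91.4 CPM. The compound 32 libraries lay above the other 6 without overlap, while the sunitinib and DMSO libraries overlapped. Under compound 32 DDB2 was 72.8% higher than in DMSO (log2 fold change 0.79 ± 0.08 SE, edgeR quasi-likelihood adjusted p = 4.97e-05), a change larger in size than that of 91.6% of the genes tested. Under sunitinib the value was 0.08 ± 0.08 (95% interval -0.10 to 0.26, edgeR adjusted p = 0.446). Compound 32 against sunitinib gave 0.71 ± 0.08 (edgeR adjusted p = 2.65e-05), so the difference between the compounds was itself called. In bulk RNA, more cells expressing a gene and more RNA per cell cannot be told apart. These 3 values were 0.79, 0.01 and 0.78 without sunitinib replicate 3, and the calls for compound 32 held in all 19 alternative fits. DDB2 (ENSG00000134574) lies on chromosome 11 from 47214465 to 47239240, on the plus strand, and shares no exonic base with another gene. The antisense gene AC018410.2, within its span, had 106 counts over the 9 libraries and a value of 0.97 ± 0.43 under compound 32 that did not pass (edgeR adjusted p = 0.132).

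XPC, the other sensor of lesions across the genome, rose under sunitinib. It held 38.1, 40.4 and 44.6 CPM in DMSO, 56.1, 53.2 and 49.7 CPM under sunitinib and 45.8, 47.7 and 44.2 CPM under compound 32. All sunitinib libraries lay above all DMSO libraries, and the compound 32 libraries overlapped those of DMSO. The log2 fold change under sunitinib was 0.37 ± 0.08 (29.2% higher, edgeR adjusted p = 0.00346), and it was called in all 19 alternative fits, between 0.31 and 0.45. Compound 32 against DMSO gave 0.16 ± 0.08 (edgeR adjusted p = 0.179), which was called at the same size without sunitinib replicate 3 (0.16, edgeR adjusted p = 0.0313). The difference between the compounds, -0.21 ± 0.08, was just past the threshold (edgeR adjusted p = 0.0485) and was called in 6 of 19 alternative fits, so it is a marginal one. XPC (ENSG00000154767) lies on chromosome 3 from 14145147 to 14178783 and shares 30.4% of its exonic bases with genes on the other strand. Among them LSM3, an RNA-binding protein gene that starts 425 bases from XPC, was not called under sunitinib (0.17 ± 0.23, edgeR adjusted p = 0.584), nor was AC093495.1 (0.20 ± 0.20, edgeR adjusted p = 0.442). The third, AC090004.1, had a value of -0.42 ± 0.36 under sunitinib (edgeR adjusted p = 0.367) and fell under compound 32 (-1.36 ± 0.40, edgeR adjusted p = 0.0292).

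Of the sensors of stalled transcription, ERCC6 rose under both compounds and ERCC8 passed the test under neither. ERCC6, a chromatin remodeller of the SWI/SNF family, held 23.0, 20.5 and 24.6 CPM in DMSO, 28.5, 27.7 and 24.9 CPM under sunitinib and 29.1, 28.5 and 31.2 CPM under compound 32. Neither treated group overlapped DMSO, although sunitinib replicate 3, at 24.9, was close to the highest DMSO library, at 24.6. ERCC6 rose under compound 32 (0.38 ± 0.09, 30.4% higher, edgeR adjusted p = 0.0123), and this was called in 17 of 19 alternative fits, the exceptions being those without DMSO replicate 2 (0.31, edgeR adjusted p = 0.0644) and without compound 32 replicate 3 (0.34, edgeR adjusted p = 0.0598). Under sunitinib it also passed, narrowly (0.25 ± 0.09, edgeR adjusted p = 0.0473), but only 7 of 19 alternative fits called it, with adjusted p from 0.0021, without sunitinib replicate 3, to 0.196. The compounds did not differ detectably (0.13 ± 0.09, 95% interval -0.07 to 0.33, edgeR adjusted p = 0.267). ERCC6 (ENSG00000225830) lies on chromosome 10 from 49455368 to 49539538.

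ERCC8, the CSA subunit of a ubiquitin ligase, held 14.3, 13.9 and 14.4 CPM in DMSO, 12.4, 12.03 and 13.9 CPM under sunitinib and 11.8, 12.1 and 11.5 CPM under compound 32. The compound 32 libraries lay below all DMSO libraries. Its log2 fold change was -0.15 ± 0.09 under sunitinib (edgeR adjusted p = 0.22) and -0.27 ± 0.10 under compound 32 (edgeR adjusted p = 0.067), and neither passed the test. Without sunitinib replicate 3, which is in neither group of the second comparison, compound 32 against DMSO was called at -0.26 (edgeR adjusted p = 0.0326). The SE was 0.103 in that fit and 0.096 with all 9 libraries. Why the call changed was not tested. ERCC8 (ENSG00000049167) lies on chromosome 5 from 60873831 to 60945073 and shares 28.3% of its exonic bases with the pseudogene GNL3LP1, which had 17 counts over the 9 libraries. NDUFAF2, an assembly factor of the respiratory chain, starts 56 bases away on the other strand and had values of 0.42 ± 0.26 (edgeR adjusted p = 0.233) under sunitinib and 0.01 ± 0.27 (edgeR adjusted p = 0.988) under compound 32.

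Of the helicase genes of TFIIH, ERCC3 fell under sunitinib and ERCC2 under compound 32. ERCC3 held 73.2, 72.0 and 73.0 CPM in DMSO, 64.6, 65.0 and 58.5 CPM under sunitinib and 82.4, 79.8 and 83.2 CPM under compound 32. The 3 groups did not overlap, with sunitinib lowest and compound 32 highest. ERCC3 fell under sunitinib (-0.21 ± 0.06, edgeR adjusted p = 0.0205). That call depended on the scaling and was lost with upper-quartile factors (-0.13) and with library totals (-0.15), each at an edgeR adjusted p of 0.117. Leaving out DMSO replicate 1 or 3 also ended it (edgeR adjusted p = 0.058 and 0.0552), as did using only the 6 libraries compared. In all, 14 of 19 alternative fits called the fall of ERCC3. Compound 32 against DMSO gave 0.17 ± 0.06 (edgeR adjusted p = 0.0803), called without sunitinib replicate 3 (0.17, edgeR adjusted p = 0.00367). The difference between the compounds was called in the main test and all 19 alternatives, at 0.38 ± 0.06 (30.4% higher under compound 32, edgeR adjusted p = 4.63e-04).

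ERCC2 held 58.9, 64.6 and 64.0 CPM in DMSO, 59.1, 63.4 and 49.2 CPM under sunitinib and 48.0, 53.5 and 51.1 CPM under compound 32. Only compound 32 stood clear of DMSO, and sunitinib replicate 3 was the low library of its group. ERCC2 fell under compound 32 (-0.30 ± 0.09, 18.6% lower in fold terms, edgeR adjusted p = 0.0412). Leaving out any 1 of the 6 libraries compared ended that call (edgeR adjusted p from 0.0603 to 0.146), as did scaling by library totals (edgeR adjusted p = 0.0616), and leaving out sunitinib replicate 3 strengthened it (-0.30, edgeR adjusted p = 2.64e-05). Under sunitinib the value was -0.13 ± 0.09 (95% interval -0.33 to 0.08, edgeR adjusted p = 0.302). ERCC3 (ENSG00000163161) lies on chromosome 2 from 127257290 to 127294176 and ERCC2 (ENSG00000104884) on chromosome 19 from 45349837 to 45370918.

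XPA, which checks the lesion and positions the nucleases, was uneven among the sunitinib libraries. It held 7.91, 8.03 and 8.30 CPM in DMSO, 10.6, 8.93 and 16.4 CPM under sunitinib and 6.46, 6.01 and 6.34 CPM under compound 32. The 3 groups did not overlap, but sunitinib replicate 3 alone was 1.67 times the mean of the other sunitinib libraries. XPA rose under sunitinib with all libraries (0.56 ± 0.19, edgeR adjusted p = 0.0329), and without replicate 3 the value was 0.28 and was not called (edgeR adjusted p = 0.0908). Its log2 fold change was the largest of the 10 under sunitinib with all libraries, and lay below those of XPC (0.41), ERCC5 (0.38) and ERCC6 (0.31) without that one. In all, 9 of 19 alternative fits called it. A correction for gene length within each library, chosen after seeing the data, gave 0.35 (edgeR adjusted p = 0.0698). Under compound 32 XPA was at -0.37 ± 0.20 (95% interval -0.80 to 0.07, edgeR adjusted p = 0.222), and at -0.36 without sunitinib replicate 3 (edgeR adjusted p = 0.026). Compound 32 against sunitinib was called in the main test and in all 19 alternatives, at -0.93 ± 0.19 (edgeR adjusted p = 0.00197) and -0.64 without sunitinib replicate 3. XPA (ENSG00000136936) lies on chromosome 9 from 97674909 to 97697357 and has the shortest summed exon length of the 10, 1833 bases.

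**Figure D2:**
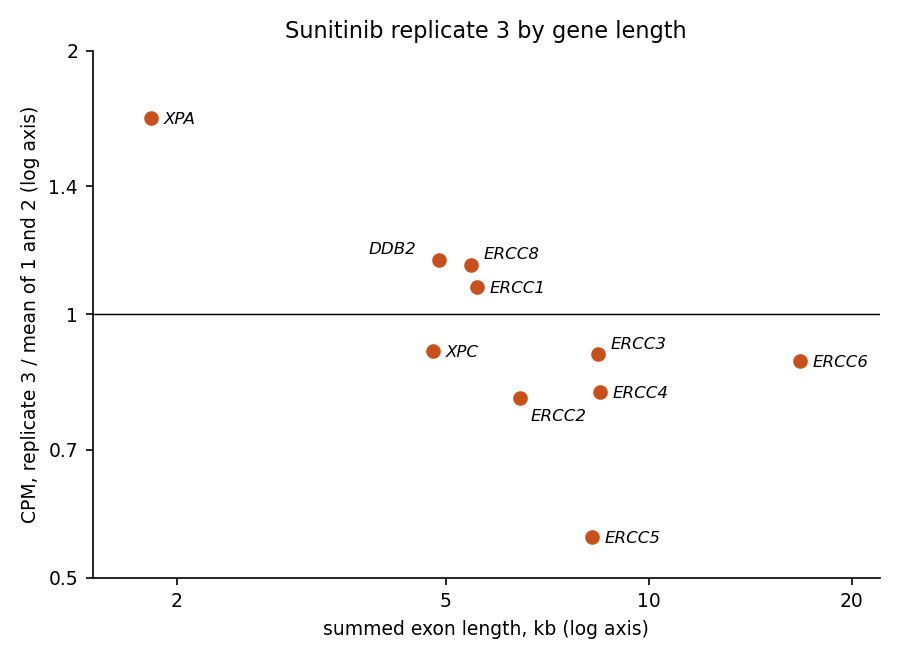
Ratio of CPM in sunitinib replicate 3 to the mean of sunitinib replicates 1 and 2 (vertical, log axis) against summed exon length (horizontal, log axis) for the 10 genes. XPA, the shortest, is highest at 1.67 and ERCC5 is lowest at 0.557.

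Of the nuclease genes, ERCC1 rose under sunitinib, and ERCC4 and ERCC5 passed the test under neither compound. ERCC1, the partner that holds the XPF nuclease on DNA, held 48.8, 49.3 and 46.6 CPM in DMSO, 54.7, 59.9 and 61.6 CPM under sunitinib and 46.2, 48.6 and 46.0 CPM under compound 32. Every sunitinib library lay above the other 6 libraries. ERCC1 rose under sunitinib by 21.8% (0.28 ± 0.07, edgeR adjusted p = 0.00699), and all 19 alternatives called it, between 0.25 and 0.37. Under compound 32 ERCC1 had a value of -0.04 ± 0.07 (95% interval -0.19 to 0.11, edgeR adjusted p = 0.746), and the compounds differed by -0.32 ± 0.07 (edgeR adjusted p = 0.00248). ERCC1 (ENSG00000012061) is annotated on chromosome 19 from 45407333 to 45478828, and 28.6% of its exonic bases are shared with CD3EAP, an RNA polymerase I subunit gene on the other strand. CD3EAP fell under both compounds (-0.61 ± 0.17 and -0.66 ± 0.17, edgeR adjusted p = 0.0134 and 0.0163), a direction opposite to that of ERCC1 under sunitinib. FOSB, a transcription factor gene within the ERCC1 span that shares no exon with it, had a value of 0.06 ± 0.28 under sunitinib (edgeR adjusted p = 0.876) and rose under compound 32 (1.34 ± 0.25, edgeR adjusted p = 0.00295).

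ERCC4, which encodes the catalytic XPF partner of ERCC1, held 23.5, 23.0 and 21.4 CPM in DMSO, 25.1, 21.8 and 19.1 CPM under sunitinib and 20.4, 18.8 and 19.5 CPM under compound 32, and sunitinib spanned the DMSO libraries. The log2 fold change was -0.04 ± 0.10 under sunitinib (95% interval -0.26 to 0.19, edgeR adjusted p = 0.805) and -0.21 ± 0.11 under compound 32 (edgeR adjusted p = 0.187), the latter called without sunitinib replicate 3 (-0.21, edgeR adjusted p = 0.0451). The difference between the changes of the partner genes was not tested. ERCC5 had 64 to 158 counts per library, which may miss reads in the exons it shares with BIVM-ERCC5. It held 5.45, 4.92 and 6.95 CPM in DMSO, 8.36, 6.57 and 4.16 CPM under sunitinib and 7.24, 6.26 and 5.32 CPM under compound 32. All its groups overlapped. Its intervals were wide, -0.36 to 0.67 under sunitinib (edgeR adjusted p = 0.627) and -0.40 to 0.64 under compound 32 (edgeR adjusted p = 0.769), so changes within these intervals are not excluded. Without sunitinib replicate 3 its value under sunitinib was 0.38 (95% interval 0.04 to 0.72, edgeR adjusted p = 0.0535), with an SE of 0.17 in place of 0.23. ERCC4 (ENSG00000175595) lies on chromosome 16 from 13920157 to 13952345, sharing 25.7% of its exonic bases with the antisense gene AC010401.1 (25 counts over the 9 libraries), and ERCC5 (ENSG00000134899) on chromosome 13 from 102807146 to 102876001. BIVM, which shares 19.1% of the exonic bases of ERCC5, was at -0.01 ± 0.09 under sunitinib (edgeR adjusted p = 0.926) and -0.17 ± 0.09 under compound 32 (edgeR adjusted p = 0.207).

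**Figure D3:**
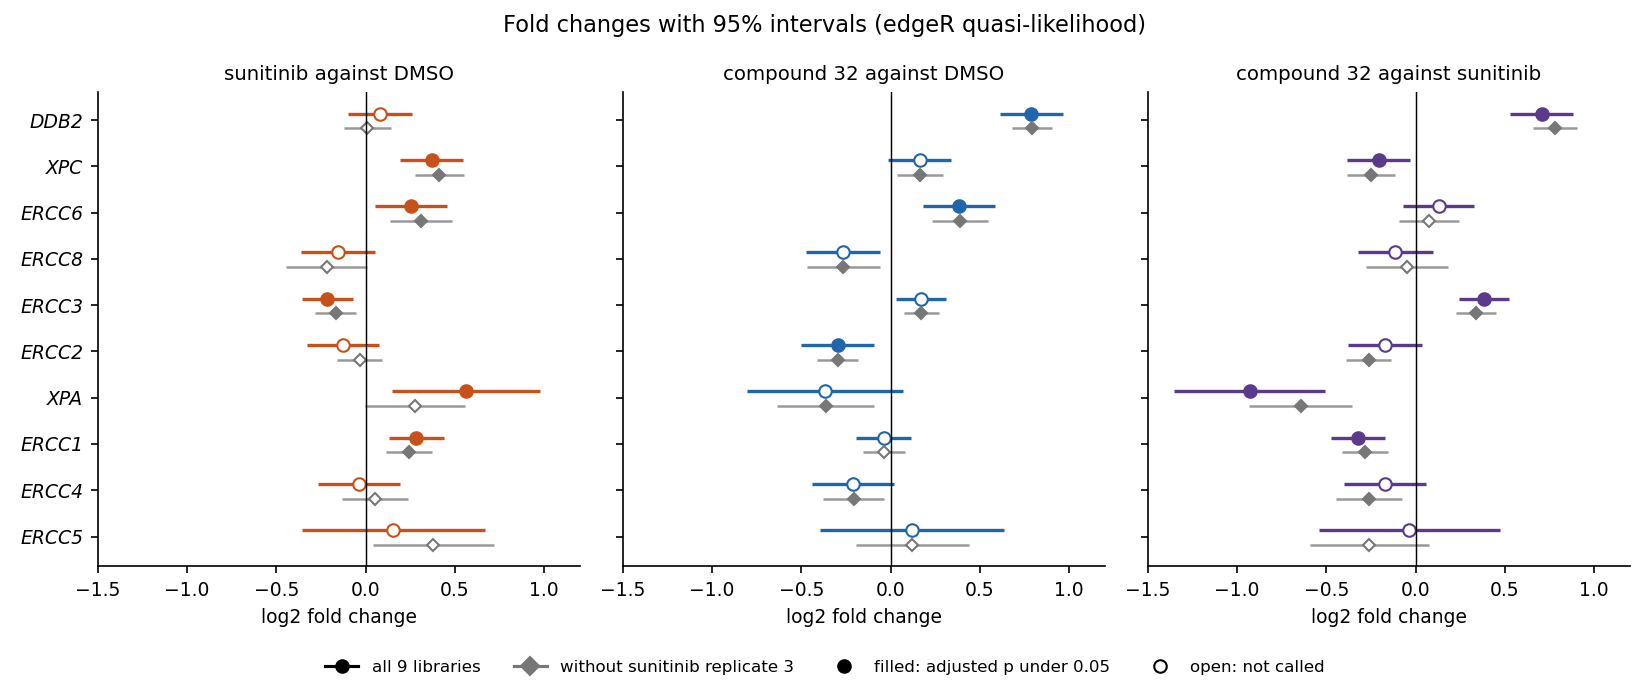
Log2 fold changes of the 10 genes in the 3 comparisons, as points with 95% intervals from edgeR, coloured for all 9 libraries and grey without sunitinib replicate 3, filled where the adjusted p is under 0.05. DDB2 under compound 32 (0.79) is the largest value against DMSO, with an interval that overlaps that of XPA under sunitinib. The XPA value under sunitinib moves from 0.56 to 0.28 when the library is left out.

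Counted together, 4 of the 10 genes rose under sunitinib (ERCC1, ERCC6, XPA and XPC), 1 fell (ERCC3) and 5 did not pass. Over all genes tested edgeR called 40.2%, 20.3% higher and 19.9% lower, so 5 of 10 is near the background. The sunitinib and DMSO libraries did not overlap for 5 of the 10, beside 50.8% of all genes. The median log2 fold change of the 10 was 0.12, beside 0.02 over all genes. The balance over all genes moved with the scaling, from 3090 higher and 3036 lower to 3952 and 2316 with upper-quartile factors. Without sunitinib replicate 3, 3 of the 10 were called higher and 1 lower, with 51.4% of all genes called (25.1% higher and 26.3% lower). Under compound 32, 2 of the 10 rose (DDB2 and ERCC6), 1 fell (ERCC2) and 7 did not pass, against 22.3% of all genes, 12% higher and 10.3% lower. The groups did not overlap for 7 of the 10, beside 49.1% of all genes. The median of the 10 was 0.04, beside -0.00027 over all genes. Without sunitinib replicate 3 this became 4 higher and 4 lower, while the share over all genes became 42% (21.6% higher and 20.5% lower). Between the compounds 2 were higher under compound 32 (DDB2, ERCC3) and 3 lower (ERCC1, XPA, XPC), against 49.2% of all genes called, 24.1% higher and 25.2% lower. The groups did not overlap for 5 of the 10, beside 56.9% of all genes. Upper-quartile factors moved the split over all genes from 3664 higher and 3834 lower to 3008 and 4712. Without sunitinib replicate 3, 2 were higher and 5 lower, with 58.7% of all genes called, 29.7% higher and 29% lower. Sunitinib and compound 32 were compared with the same DMSO libraries, so their values are not independent.

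The wider pathway was read from a list of 53 genes that includes the 10, of which 52 passed the filter. Under sunitinib 11 rose and 20 fell, with a median of -0.13, and under compound 32 12 rose and 8 fell, with a median of 0.02. Over all genes edgeR called 20.3% higher and 19.9% lower under sunitinib, and 12% and 10.3% under compound 32. The counts were 11 and 27, and 16 and 17, without sunitinib replicate 3, with 51.4% and 42% of all genes called. Most of the falls under sunitinib were in the last step. Of 18 genes of gap filling and ligation, a step shared with DNA replication, 13 fell and 1 rose under sunitinib (median -0.76), and under compound 32 8 rose and 2 fell (median 0.23). Leaving out sunitinib replicate 3 gave 14 and 1, and 9 and 2. The clamp loader gene RFC3 averaged 72.5 ± 3.61 CPM in DMSO (SD, n = 3), 28.4 ± 2.12 CPM under sunitinib and 88.9 ± 3.65 CPM under compound 32. PCNA, the sliding clamp, went from 136.7 ± 2.35 to 49.6 ± 10.6 and 233.8 ± 10.8 CPM. RFC5 and POLD3, a subunit of DNA polymerase delta, fell under sunitinib by 1.14 ± 0.07 and 0.99 ± 0.08 on the log2 scale (edgeR adjusted p = 7.19e-07 and 2.34e-06). Under compound 32 the ligases parted: LIG1, of replication, rose by 0.54 ± 0.07 (edgeR adjusted p = 3.77e-04), and LIG3, the partner of XRCC1, fell by 0.94 ± 0.10 on the log2 scale (edgeR adjusted p = 9.74e-05). None of the 10 genes belongs to this step.

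**Figure D4:**
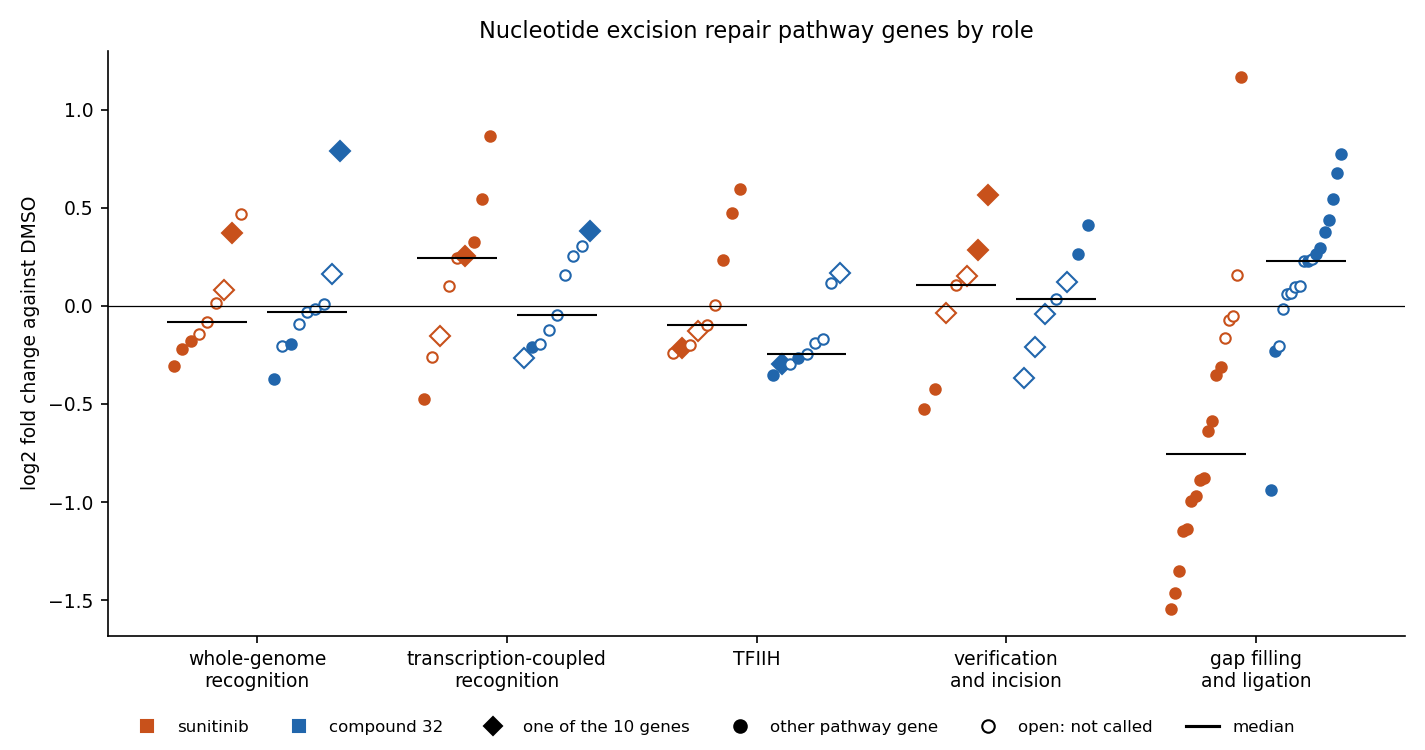
Log2 fold change against DMSO of each tested pathway gene, grouped by role, for sunitinib (orange) and compound 32 (blue), with diamonds for the 10 genes, open symbols where the gene was not called and a line at each median. The gap filling genes have a median of -0.76 under sunitinib and 0.23 under compound 32, and the medians of the other roles lie between -0.24 and 0.25.

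The partners of the 10 genes in the earlier steps were mixed, and are read beside the 40.2% of all genes called under sunitinib and the 22.3% under compound 32. In the step of lesion recognition across the genome, under sunitinib 1 of 9 genes rose, XPC, and 3 fell: DDB1, which binds DDB2 (-0.31 ± 0.07, edgeR adjusted p = 0.00658), RAD23B, which stabilises XPC (-0.22 ± 0.08, edgeR adjusted p = 0.0367), and the ligase scaffold CUL4B (-0.18 ± 0.06, edgeR adjusted p = 0.0375). Compound 32 raised 1, DDB2, and lowered 2, among them CUL4A (-0.20 ± 0.06, edgeR adjusted p = 0.0372). DDB2 therefore rose while DDB1 had a value of -0.21 ± 0.07 that did not pass (edgeR adjusted p = 0.0709) and was called without sunitinib replicate 3 (-0.20, edgeR adjusted p = 1.38e-06). In the transcription-coupled step sunitinib raised 4 of 9 and lowered 1. UVSSA, which brings TFIIH to the stalled polymerase, went from 18.1 ± 0.85 to 26.4 ± 3.50 CPM (SD, n = 3), and the deubiquitinase USP7, which stabilises ERCC6, from 194.4 ± 6.10 to 140.1 ± 2.85 CPM. STK19 (0.87 ± 0.13, edgeR adjusted p = 3.19e-04) and the elongation factor TCEA1 (0.33 ± 0.07, edgeR adjusted p = 0.00294) rose too, beside ERCC6. Compound 32 raised 1 of the 9, ERCC6, and lowered 1, USP7 (-0.21 ± 0.06, edgeR adjusted p = 0.024). Without sunitinib replicate 3, compound 32 raised 2 and lowered 4 of the genes in each of these steps, and sunitinib raised 2 and lowered 5 in the first and raised 4 and lowered 2 in the second. In that fit 42% of all genes were called under compound 32 and 51.4% under sunitinib.

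Of 9 tested TFIIH genes 3 rose and 1, ERCC3, fell under sunitinib, and 0 rose and 3 fell under compound 32, so 4 and 3 of 9 were called beside 40.2% and 22.3% of all genes. The counts were 3 and 3, and 1 and 5, without sunitinib replicate 3, with 51.4% and 42% of all genes called. Those that rose were the kinase gene CDK7 (0.47 ± 0.10, edgeR adjusted p = 0.00355), GTF2H3 (0.23 ± 0.06, edgeR adjusted p = 0.0107) and GTF2H5 (0.60 ± 0.19, edgeR adjusted p = 0.0263), at 0.34, 0.21 and 0.28 without sunitinib replicate 3. Those that fell under compound 32 were ERCC2, GTF2H3 (-0.26 ± 0.06, edgeR adjusted p = 0.0111) and the cyclin gene CCNH (-0.35 ± 0.12, edgeR adjusted p = 0.0469). In verification and incision the single-strand binding genes RPA1 and RPA2 fell under sunitinib (-0.53 ± 0.06 and -0.42 ± 0.11, edgeR adjusted p = 3e-05 and 0.00817) and rose under compound 32 (0.27 ± 0.06 and 0.42 ± 0.10, edgeR adjusted p = 0.00614 and 0.0146), whereas XPA and ERCC1 rose under sunitinib and did not pass under compound 32. Counts of all lists were those of edgeR at an adjusted p under 0.05.

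DDB2 and XPC were also read beside other targets of p53, on a list chosen with earlier results of these data known. Of 27 such genes, which include both, 20 rose and 0 fell under compound 32 (median 0.52), and 10 rose and 3 fell under sunitinib (median 0.10). Over all genes 12% were higher and 10.3% lower under compound 32, and 20.3% and 19.9% under sunitinib. In the absence of sunitinib replicate 3 the counts were 22 and 0, and 12 and 4, with 42% and 51.4% of all genes called. The smallest p-values under compound 32 were those of CDKN1A (1.29 ± 0.07), an inhibitor of cyclin-dependent kinases, the secreted factor GDF15 (1.39 ± 0.08), TP53INP1 (1.01 ± 0.08), BTG2 (1.66 ± 0.15) and the translesion polymerase POLH (0.84 ± 0.08), each with an edgeR adjusted p of at most 2.73e-05. Under sunitinib the same 5 genes were at 0.46 ± 0.07, 1.80 ± 0.08, 0.79 ± 0.08, 0.19 ± 0.16 and -0.59 ± 0.08, so the list was not uniform there. DDB2 (0.79) lay above the median of the list under compound 32 and XPC (0.16) below it. Whether p53 took part in the rise of DDB2 was not tested.

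**Figure D5:**
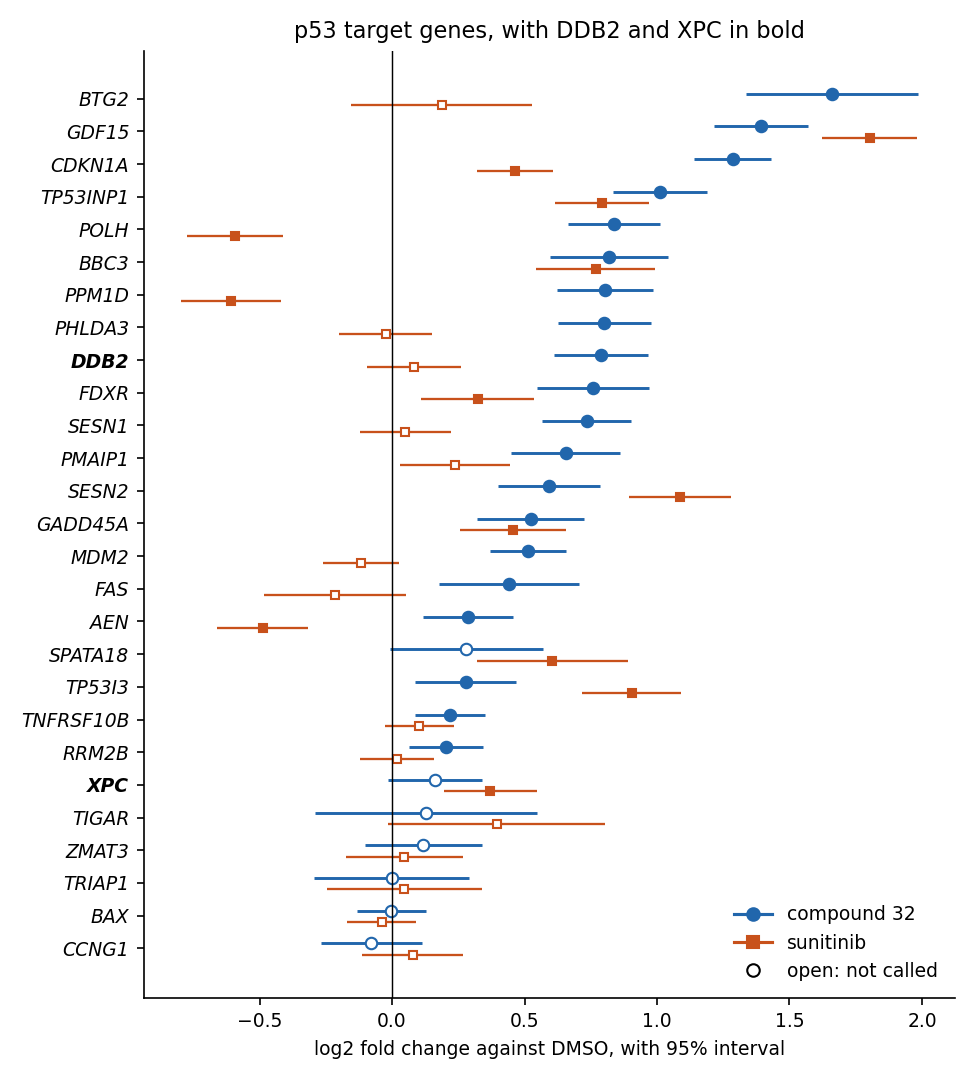
Log2 fold change against DMSO with 95% interval (horizontal) of 27 p53 target genes, ordered by the value under compound 32, for compound 32 (blue circles) and sunitinib (orange squares), open where not called. Under compound 32, 20 rose and none fell, with DDB2 at 0.79 and XPC at 0.16, while under sunitinib DDB2 was at 0.08 and XPC at 0.37.

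The genes whose pattern over the 9 libraries was most like that of DDB2, among 10164 protein-coding genes with a mean of at least 5 CPM, were TNFSF9, ALAS1 and RNF19B (Pearson r of log2 CPM of 0.989, 0.988 and 0.988). Those most like XPA were TCEAL4, EAPP and EEF1A1 (r of 0.990, 0.984 and 0.983). These correlations describe libraries that share 3 treatments, and for XPA they also share the high value of sunitinib replicate 3.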

How the data were processed

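RNA from 9 HEYA8 cultures was extracted with TRIzol and enriched for polyadenylated RNA, per the labels' protocols. The authors deposited 1 table of raw, whole-number read counts per gene. The submitters' processing notes list fastp, HISAT2 2.0.5, featureCounts, DESeq2 and edgeR, without roles, and both a mouse build and hg38. Of 58735 genes, 58724 had the identifier, start, end and summed exon length of GENCODE release 29 (GRCh38). Strand setting and treatment of reads in shared exons are not stated, so overlapping genes are named beside the members.

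Columns were assigned to samples by the names in their descriptions. Genes were kept by filterByExpr, counts were scaled by TMM, and groups were compared by the quasi-likelihood F test of edgeR (version 4.0.16; limma 3.58.1, R 4.3.3; robust, group means over all 9 libraries, 6 residual degrees of freedom), with Benjamini-Hochberg adjustment over all 15232 genes and calls at an adjusted p under 0.05. SE and 95% intervals come from that fit. CPM uses the TMM factors. Pairs of libraries within a group differed by more than sampling noise (chi-square per degree of freedom at least 1.86), so none was counted as a copy. The test was tested on simulated data.

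The members and lists were chosen with earlier results of these data known. Named are all 10 members, up to 3 called genes per role and comparison, the 5 p53 targets with the smallest p under compound 32, genes that overlap a member or start within 1 kb of it on the other strand (of those with too few counts to test, only some are named), and 3 genes of similar pattern. One gene that this rule names is not reported here. Alternatives were other scalings, other count filters, DESeq2 1.42.0, limma voom, a replicate block, only the 6 libraries compared, leaving out each library and, added after seeing the data, a correction by 20 bins of gene length. Promoter windows are from RefSeq, and all 10 members matched by symbol.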

Additional observations from a re-analysis of the deposited data

How the results depend on the processing

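Over 19 alternatives for each of the 10 genes in 3 comparisons, 506 of 570 values kept their side of the threshold, 49 lost a call, 15 gained one and none changed sign as a called value. With only the 6 libraries compared, the 10 genes gave 2 higher and 0 lower under sunitinib and 4 higher and 4 lower under compound 32, the pathway list gave 17 lower under compound 32, and all genes called under compound 32 were 6372 in place of 3401. Under sunitinib 2568 of all 14809 genes tested were then higher and 2454 lower. With library totals as the scaling, 0 of the 10 were lower under either compound, and with upper-quartile factors 0 under sunitinib. Of all 15232 genes, library totals called 2428 lower under sunitinib and 1561 under compound 32, and upper-quartile factors 2316 under sunitinib. Leaving out 1 library at a time, the 10 genes gave 2 to 3 higher and 0 to 1 lower under sunitinib, 1 to 4 higher and 0 to 4 lower under compound 32, and 2 to 5 lower for compound 32 against sunitinib. Of all 15549 to 15699 genes tested, these fits called 2276 to 3908 higher and 2462 to 4096 lower under sunitinib. They called 1168 to 3359 higher and 968 to 3189 lower under compound 32, and 3168 to 4519 lower for compound 32 against sunitinib. The pathway list gave 7 to 11 higher under sunitinib, and 7 to 16 higher and 1 to 17 lower under compound 32, where all genes called ran from 2136 to 6548. The highest counts under compound 32 came without sunitinib replicate 3 (6548 of all genes). The lowest, 2136, came without DMSO replicate 3. The cause of these changes was not tested. Libraries with the same number in their titles correlated in their deviations between -0.0769 and 0.0609, and those with different numbers between -0.0609 and 0.0882. With 3 libraries per group these values cannot decide whether the numbers pair the samples. The replicate block changed 2 calls of single members: ERCC6 under sunitinib (0.26, edgeR adjusted p = 0.0694) and XPC between the compounds (-0.21, edgeR adjusted p = 0.0826). It called 3 of the 10 higher and 1 lower under sunitinib, 2 and 1 under compound 32, and 3 pathway genes lower under compound 32 in place of 8. Of all 15232 genes it called 2846 higher and 2912 lower under sunitinib. Under compound 32 it called 1559 higher and 1319 lower, in place of 1830 and 1571. Low counts limit ERCC5 and XPA most, at 64 to 252 per library.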

Other observations

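GTF2H4, a TFIIH subunit gene outside the 10, was the 1 pathway gene that did not pass the filter, at a mean of 0.0214 CPM in DMSO. It shares 79% of its exonic bases with VARS2 on the same strand, which had 3918 counts over the 9 libraries. BIVM-ERCC5, which shares 63.2% of the exonic bases of ERCC5, had 0 counts. How the counting treated shared exons was not tested.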
